A study of Mus musculus with 10 samples.

Results

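Alpha v integrins and the TGF-beta ligands they act on were followed in mouse intestinal tissue as a set of 10 genes out of 19456 listed in at least 1 sample. The genes were taken by symbol from the deposited tables: ITGB6, a row for the human gene, and the mouse genes Itgb6, Itgav, Itgb3, Itgb5, Itgb8, Tgfb1, Tgfb2, Tgfb3 and Ltbp1. The rule for choosing them used symbols and no measured value, but the set was chosen with earlier results of these data known. The study used C57BL/6 mice that were transgenic for ITGB6 (TG) or wild type (WT), and intestine was taken either with no treatment or after 2.5% dextran sulfate sodium (DSS) by mouth, which the submitters used as a model of intestinal fibrosis. The groups were 2 TG DSS samples, 2 WT DSS samples, 3 TG untreated samples and 3 WT untreated samples, each sequenced once from poly-A RNA on a BGISEQ-500. The sources used here do not give the promoter that drives the transgene, the length of DSS treatment, the sex or age of the mice, or whether each sample came from a separate animal. The p-values therefore speak to sample-to-sample spread alone, and that spread may be technical.

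Each sample held 15393859 to 18284704 expected counts. Epithelial markers summed to 13310 to 19010 CPM (counts scaled to a common library size) in every sample, and Krt8, an epithelial keratin, lay between 5432 and 8801 CPM. Myh11, which defines smooth muscle, was at most 0.296 CPM and Acta2 at most 1.27 CPM, while Tagln was 5.84 to 8.22 CPM. The 6 smooth muscle markers summed to 6.55 to 9.81 CPM, so these transcripts were few beside those of epithelium. Xist, transcribed from the inactive X chromosome of females, was 307.1 to 739.3 CPM in all 4 DSS samples and 0 to 0.421 CPM in all 6 untreated samples. Kdm5d, a gene of the Y chromosome, was 0 CPM in the DSS samples and 26.6 to 44.2 CPM in the untreated samples. DSS and this sex-linked split therefore cannot be told apart in any DSS comparison given here. The leukocyte gene Ptprc was 8.94 CPM in TG untreated sample 1, against 56.9 and 79.5 CPM in TG untreated samples 2 and 3, which sets the first apart from its group. The third stood apart too, with B cell markers (4 of 5 measured) that summed to 32.6 CPM, against 0.586 to 3.45 CPM in the other 9 samples, and their part in the results that rest on that sample was not tested.

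Integrins are pairs of an alpha and a beta chain, and the alpha v chain, encoded by Itgav, pairs with beta 1, beta 3, beta 5, beta 6 or beta 8. The beta 6 chain pairs only with alpha v and is a chain of epithelial cells, low at rest and raised in injury, repair and tumours. TGF-beta is secreted in a latent form in which the growth factor is held by its own propeptide, called LAP, and LAP is tied to the matrix by a latent TGF-beta binding protein such as the product of Ltbp1. Alpha v beta 6 and alpha v beta 8 grip an arginine-glycine-aspartate (RGD) motif in LAP and free or expose the growth factor. LAP of TGF-beta 1 and of TGF-beta 3 carries that motif and LAP of TGF-beta 2 does not.

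The coding sequences around the motif are shown because they separate the ligands that alpha v beta 6 can engage from the one it cannot. They were read from GENCODE M21 transcripts of GRCm38, on the coding strand and within the coding exons of Tgfb1 (chromosome 7, gene at 25687002 to 25705077), Tgfb2 (chromosome 1, 186622787 to 186709697) and Tgfb3 (chromosome 12, 86056743 to 86079041). Capitals mark the codons for arginine, glycine and aspartate, and in Tgfb2 the aligned codons.
Tgfb1: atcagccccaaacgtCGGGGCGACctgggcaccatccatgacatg
Tgfb2: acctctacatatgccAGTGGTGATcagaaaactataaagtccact
Tgfb3: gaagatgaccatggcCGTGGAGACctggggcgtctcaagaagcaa
The motif began at codon 244 of 390 in Tgfb1 and at codon 261 of 412 in Tgfb3. In Tgfb2 the codons were absent from the whole reading frame of 414 codons, and the aligned position was codon 261.

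The human transgene row dominated the set in the TG samples. ITGB6 was 2453 and 2201 CPM in the TG DSS samples, against 0.709 and 1.13 CPM in the WT DSS samples. It was 3632, 3853 and 3913 CPM in the TG untreated samples, against 0.117, 0.119 and 0.123 CPM in the WT untreated samples. Every TG sample thus stood far above every WT sample, as the genotype labels require, and within TG the DSS samples lay below all the untreated samples. In pooled counts the TG to WT ratio was 2500 after DSS (95% exact interval 1780 to 3630, from 79447 and 33 counts) and 31700 without treatment (14600 to 86400, from 189237 and 6 counts). These intervals cover counting error only, and the second rests on 2 expected counts in each WT sample. The transgene took 0.237 and 0.206% of all expected counts in the TG DSS samples and 0.352, 0.392 and 0.383% in the TG untreated samples.

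After DSS the transgene row fell in TG by 0.71 on the log2 scale (SE 0.13), a fold of 0.612, with an adjusted p of 0.0116 in edgeR's quasi-likelihood test with Benjamini-Hochberg adjustment over the 14072 genes tested. Without TG DSS sample 1 the adjusted p of edgeR's test was 0.0604, and without TG DSS sample 2 it was 0.145, while the fold kept its direction. In WT the same row was higher after DSS, by 2.88 ± 0.37 (log2, SE; adjusted p of 0.000913 in edgeR's test), on 12 and 21 expected counts in the WT DSS samples against 2, 2 and 2 in the WT untreated samples. The pooled ratio was 7.78 (3.22 to 22.7), and in limma on log2(FPKM + 1) the adjusted p was 0.14 and the call was lost. Mouse Itgb6 had 649 and 534 counts in those WT DSS samples and 382, 367 and 326 in the WT untreated samples. Whether the few reads in WT came from the mouse gene was not tested.

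The human and mouse beta 6 rows were kept apart because a read that matches both genes can be divided between them. In the TG DSS tables the human and mouse rows held 41859.99 and 477.01 expected counts in sample 1, and 37587.06 and 515.94 in sample 2. Each pair of fractions added to a whole number, 42337 and 38103, and in the other 8 samples both rows were whole. How many reads that match both genes were given to each row cannot be read from these tables, which limits the mouse Itgb6 values of the TG samples.

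**Figure D1:**
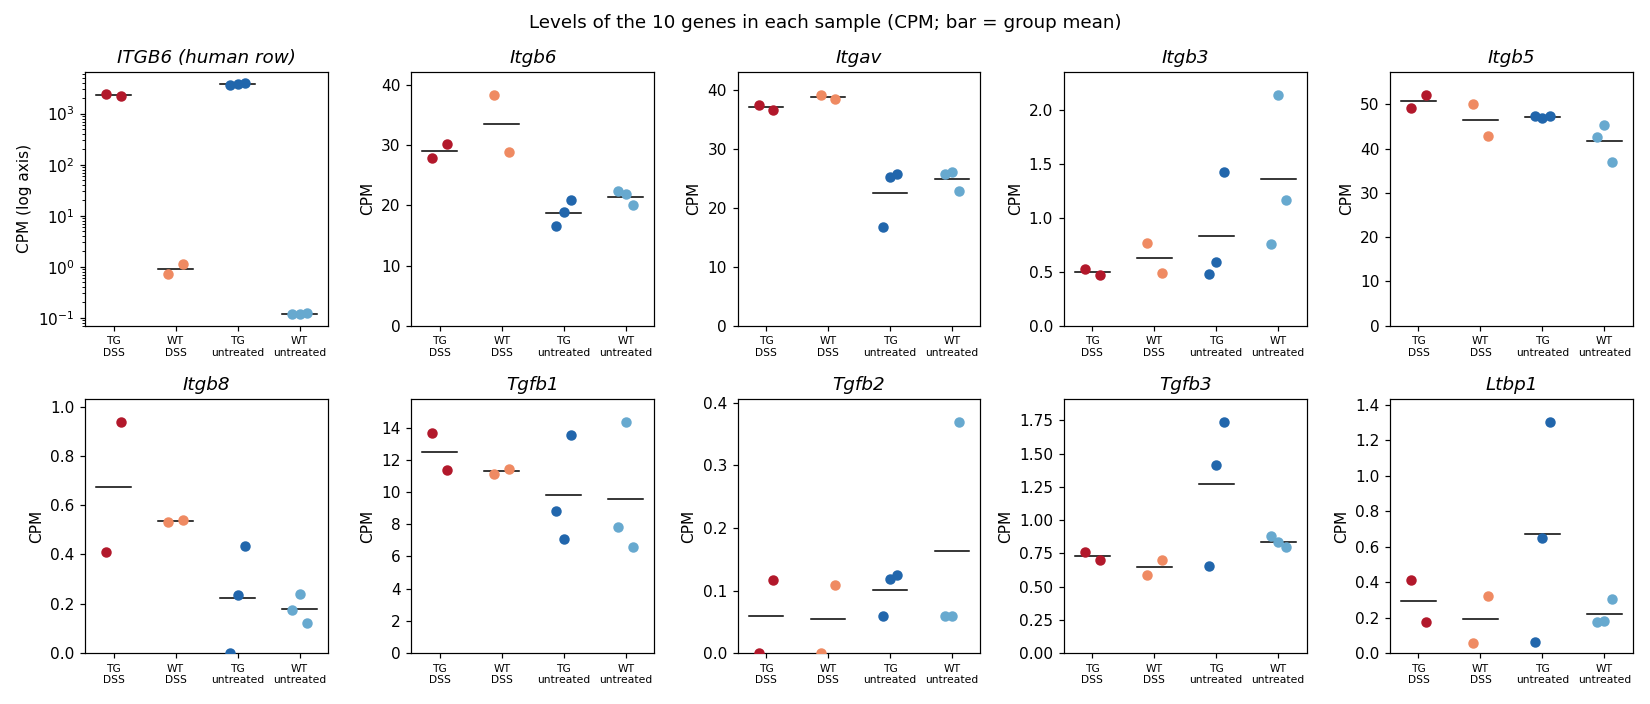
Level of each of the 10 genes in every sample, in CPM on a linear axis from 0 except for human ITGB6, which has a log axis. Points are samples and lines are group means, in the order TG DSS, WT DSS, TG untreated and WT untreated; Itgb6 and Itgav lie higher in all 4 DSS samples than in all 6 untreated samples, and ITGB6 is at 2201 CPM or more in every TG sample.

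Against this transgene level the mouse beta 6 gene was a small part of beta 6 transcripts. Per length, in FPKM, human over mouse beta 6 was 89.6 and 74.4 in the TG DSS samples and 224.1, 208.3 and 191.6 in the TG untreated samples. Human and mouse beta 6 together stood to the alpha v chain as 99.5 and 91.8 to 1 in the TG DSS samples, and as 326.7, 231.4 and 229.7 to 1 in the TG untreated samples. In WT that ratio was 1.47 and 1.15 after DSS and 1.29, 1.24 and 1.30 without treatment. Transcripts of beta 6 and alpha v were thus near parity in WT, and in TG beta 6 stood 91.8 to 326.7 times above its only partner chain.

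Among the beta chains that can pair with alpha v, Itgb1 was the largest in WT, and beta 1 also pairs with many other alpha chains. Mouse Itgb1 averaged 52.6 ± 6.43 FPKM in TG DSS samples, 64.4 ± 1.99 in WT DSS samples (SD, n = 2 each), 57.3 ± 16.5 in TG untreated samples and 58.6 ± 1.39 in WT untreated samples (SD, n = 3 each). Beta 6 made up 87.6 and 87.4% of the summed FPKM of beta 1, beta 3, beta 5, beta 6 and beta 8 in the TG DSS samples, against 8.89 and 7.71% in the WT DSS samples. In the TG untreated samples the share was 93.5, 91.0 and 91.0%, against 6.32, 6.17 and 5.76% in the WT untreated samples. With the mouse rows alone, beta 6 was 7.83 ± 0.88% in TG DSS, 8.08 ± 0.92% in WT DSS, 5.19 ± 0.70% in TG untreated and 6.05 ± 0.29% in WT untreated samples. The transgene sets the difference between genotypes in the first of these shares, so it is given without a test.

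**Figure D2:**
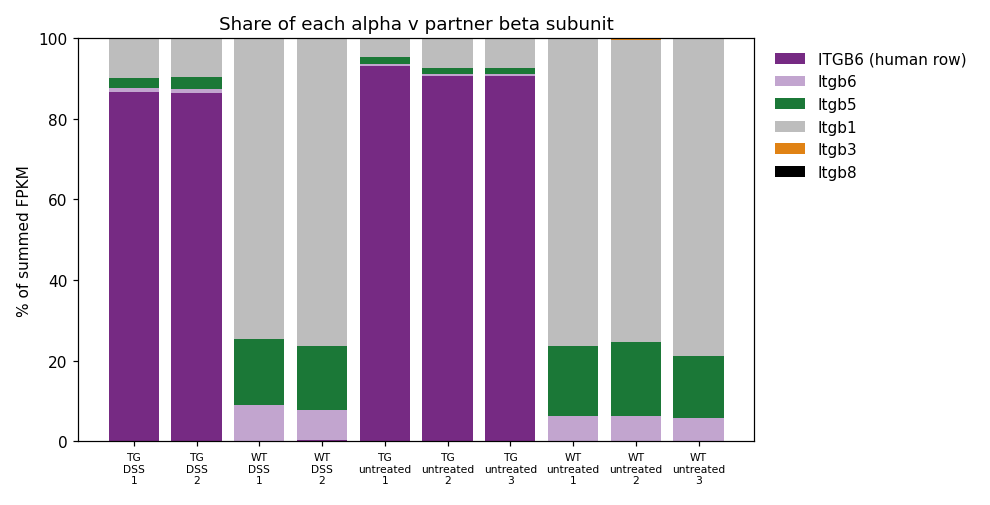
Share of each beta chain that can pair with alpha v in the summed FPKM of the 6 rows, in percent, with 1 bar per sample. Human ITGB6 fills 86.3 to 93.0% of each TG bar, and in WT bars Itgb1 fills 74.3 to 78.6% with Itgb5 and Itgb6 as the next largest.

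Within WT untreated tissue the order of the mouse genes by FPKM was Itgb5 at 13.1 ± 1.25, Itgb6 at 4.63 ± 0.22, Tgfb1 at 4.56 ± 1.98, Itgav at 3.65 ± 0.23, Tgfb3 at 0.257 ± 0.012 and Itgb3 at 0.24 ± 0.13 (SD, n = 3). Itgb8 at 0.06 ± 0.02, Ltbp1 at 0.037 ± 0.012 and Tgfb2 at 0.033 ± 0.040 closed the list. Tgfb1 did not stand apart from its neighbours Itgb6 and Itgav, given its own spread. Itgb6 lay above Itgav in these samples (4.38 to 4.80 against 3.39 to 3.83 FPKM). Tgfb3 did not stand apart from Itgb3, and the last 3 overlapped. In WT DSS samples the order was Itgb5 at 14.0 ± 0.95, Itgb6 at 6.93 ± 1.12, Itgav at 5.45 ± 0.13 and Tgfb1 at 5.15 ± 0.31 (SD, n = 2), with Itgav and Tgfb1 within their spread. Per length, alpha v and beta 6 were thus near the level of the main ligand, while Itgb8, at 0.175 ± 0.007 FPKM in WT DSS samples, was far below them.

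Itgb6, the mouse beta 6 gene (chromosome 2, 60598292 to 60722603, GRCm38.p6), was higher after DSS in both genotypes. It was 27.9 and 30.2 CPM in the TG DSS samples, against 16.5, 18.9 and 20.9 CPM in the TG untreated samples. In the WT DSS samples it was 38.4 and 28.8 CPM, against 22.4, 21.8 and 20.1 CPM in the WT untreated samples. No DSS sample overlapped the untreated samples of its genotype. That is description only, since the share of all genes that separate in this way is not given here. The rise was 0.63 ± 0.15 in TG (fold 1.55, adjusted p of 0.0399) and 0.65 ± 0.15 in WT (fold 1.57, adjusted p of 0.0164) by edgeR's quasi-likelihood test (log2, SE).

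Itgav, the alpha v gene (chromosome 2, 83722303 to 83806917), moved by nearly the same amount. It was 37.6 and 36.6 CPM in the TG DSS samples, against 16.8, 25.2 and 25.8 CPM in the TG untreated samples. In the WT DSS samples it was 39.2 and 38.5 CPM, against 25.8, 26.2 and 22.9 CPM in the WT untreated samples. All 4 DSS samples lay above 36 CPM and all 6 untreated samples below 27 CPM, with TG untreated sample 1 the lowest. As for Itgb6, this separation is description only. The rise was 0.71 ± 0.17 in TG (fold 1.64, adjusted p of 0.0384) and 0.64 ± 0.17 in WT (fold 1.56, adjusted p of 0.0273) by edgeR's quasi-likelihood test (log2, SE).

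Both genes passed in TG and in WT, 2 comparisons that have no sample in common but share 1 estimate of spread from all 10 samples. Both comparisons also carry the split in Xist and Kdm5d. With only the groups compared in the fit, edgeR's adjusted p in TG was 0.101 for Itgb6 and 0.139 for Itgav, while the WT calls held. In the fit of all 10 samples the adjusted p-values were near the threshold of 0.05 and depended on single samples. In TG, edgeR's calls of Itgb6 and of Itgav each held in 3 of the 10 fits that left out a sample, and were lost without any WT untreated sample, TG untreated sample 2 or 3, or either TG DSS sample. The TG adjusted p reached 0.278 for Itgb6 and 0.206 for Itgav, both without TG DSS sample 2. In WT, the call of Itgb6 was lost without untreated sample 2 (adjusted p of 0.0525 in edgeR), untreated sample 3 (0.0648) or DSS sample 1 (0.0927). The WT call of Itgav held in 5 of the 10 fits and was lost without any one of the 5 WT samples (0.0723 to 0.116). The log2 differences themselves stayed between 0.43 and 0.84 in all those fits.

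With the transgene row, 3 of the 8 members tested passed in TG (2 higher, 1 lower), where 5.48% of all genes tested passed, 3.33% higher and 2.15% lower. In WT 3 of 8 passed (all higher), where 19.8% of all genes passed, 10.2% higher and 9.62% lower. The remaining 2 members, Itgb8 and Tgfb2, had too few counts to be tested. The median log2 change of the tested members was -0.30 in TG, against 0.014 for all genes, and 0.20 in WT, against 0.0021 for all genes. Without the transgene row, 2 of the 7 mouse members tested passed in TG and 2 of 7 in WT, all higher. The median of these 7 was 0.10 in TG and 0.16 in WT.

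The response of Itgb6 and Itgav to DSS did not pass a test of a difference between genotypes. The TG change minus the WT change was -0.014 ± 0.22 for Itgb6 and 0.078 ± 0.24 for Itgav (log2, SE), with adjusted p-values of 0.987 and 0.94 in edgeR's interaction test. Only the transgene row among the tested members passed that test, at -3.59 ± 0.39 (adjusted p of 0.00269), where 0.846% of all genes passed. Its WT side rests on 33 and 6 pooled expected counts in a genotype that by label lacks the transgene. The 2 mouse genes kept a steady proportion, with an Itgb6 to Itgav ratio of FPKM of 1.16 ± 0.08 in TG DSS, 1.28 ± 0.24 in WT DSS (SD, n = 2 each), 1.25 ± 0.18 in TG untreated and 1.27 ± 0.03 in WT untreated samples (SD, n = 3 each). Of the markers of epithelium, the cells that make beta 6, 0 of 6 passed in either DSS comparison by edgeR ( medians of 0.027 in TG and 0.078 in WT on the log2 scale), with 0 by DESeq2 and 0 under 0.05 before adjustment in edgeR. Markers of neutrophils and macrophages moved with DSS beside Itgb6 and Itgav. Of 5 neutrophil markers tested, 4 were higher in TG and 5 in WT, and their sum was 183.7 and 252.2 CPM in TG DSS, 136.4 and 143.9 CPM in WT DSS, 29.0 to 39.3 CPM in TG untreated and 61.7 to 78.2 CPM in WT untreated samples. Ly6g made up most of each sum, S100a8 and S100a9 passed the count filter only through DSS samples, and Mpo was 0 in all 10 samples. Only Ly6g was higher in TG DSS samples (159.3 and 234.9 CPM) than in WT DSS samples (103.1 and 120.3 CPM). S100a8 was lower there (3.57 and 3.75 CPM, against 6.68 and 4.16 CPM), and S100a9, Csf3r and Cxcr2 overlapped. In WT untreated samples Ly6g was 55.7 to 72.1 CPM, while S100a8 was 0 CPM. Of 6 macrophage markers tested, 3 were higher in each genotype, and the sum of all 7 was 103.6 and 119.8 CPM in TG DSS, 146.9 and 136.1 CPM in WT DSS, 47.95 to 59.98 CPM in TG untreated and 39.6 to 51.3 CPM in WT untreated samples. Cd14 made up most of each macrophage sum, at 80.4 and 96.5 CPM in TG DSS and 124.4 and 119.9 CPM in WT DSS samples. Cd14 and Mrc1 were lower in TG DSS than in WT DSS samples, C1qa, Adgre1 and Cd163 were higher, and Cd68 and Csf1r overlapped. The part of neutrophils and macrophages in the result was not tested.

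**Figure D3:**
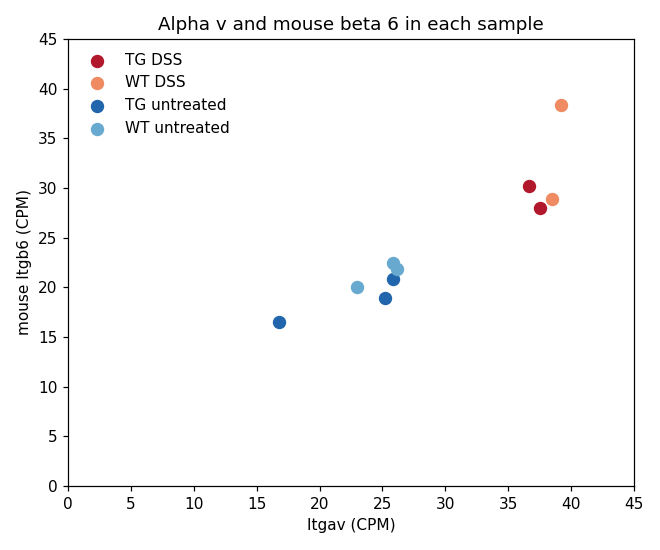
Mouse Itgb6 against Itgav in each of the 10 samples, both in CPM on linear axes from 0, coloured by group. The 4 DSS samples, red and orange, sit at Itgav above 36 CPM and Itgb6 above 27 CPM, apart from the 6 untreated samples in blue.

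The promoters of these genes are shown because the 2 chains of one receptor moved together. They are RefSeq sequences of GRCm38.p6, 300-base windows that end just past an annotated start, at chr2:60722554-60722853 on the minus strand for Itgb6 and chr2:83724147-83724446 on the plus strand for Itgav. Capitals mark matches to the GC box GGGCGG.
Itgb6: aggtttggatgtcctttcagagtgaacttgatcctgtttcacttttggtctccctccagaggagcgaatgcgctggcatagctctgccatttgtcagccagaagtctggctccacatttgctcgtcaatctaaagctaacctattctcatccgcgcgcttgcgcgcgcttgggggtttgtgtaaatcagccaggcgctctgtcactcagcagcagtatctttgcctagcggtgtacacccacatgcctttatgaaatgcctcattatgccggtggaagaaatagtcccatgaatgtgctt
Itgav: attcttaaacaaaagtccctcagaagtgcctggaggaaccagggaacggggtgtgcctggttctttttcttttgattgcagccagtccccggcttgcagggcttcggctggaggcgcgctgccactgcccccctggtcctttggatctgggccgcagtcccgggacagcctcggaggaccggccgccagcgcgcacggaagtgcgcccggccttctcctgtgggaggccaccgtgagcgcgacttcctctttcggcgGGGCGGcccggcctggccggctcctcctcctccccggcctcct
The Itgav window was 67.3% G and C and held 1 GC box, and the Itgb6 window was 50.3% G and C and held none. Of 32817 RefSeq mouse promoter windows, 35.6% hold that box on either strand. Neither window held the AP-1 letters TGANTCA (7.81% of windows), the STAT letters TTCNNNGAA (8.29%), the SMAD palindrome GTCTAGAC (0.213%) or TATAAA (13.6%), searched on both strands. These are matches of letters in 1 window per gene and say nothing of what binds there.

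The other alpha v partners did not pass any test. Itgb5, whose chain binds vitronectin with alpha v and which was the most abundant of the mouse members, was 49.2 and 52.1 CPM in the TG DSS samples, against 50.0 and 42.9 CPM in the WT DSS samples. It was 47.4, 46.9 and 47.3 CPM in the TG untreated samples, against 42.6, 45.3 and 37.0 CPM in the WT untreated samples. All 3 TG untreated samples lay above all 3 WT untreated samples, by 0.18 ± 0.11 (log2, SE; adjusted p of 0.361 in edgeR's test). After DSS the genotypes overlapped.

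Itgb3, whose chain also forms the fibrinogen receptor of platelets, was rare. It was 0.527 and 0.468 CPM in the TG DSS samples and 0.768 and 0.486 CPM in the WT DSS samples. It was 0.477, 0.591 and 1.43 CPM in the TG untreated samples and 0.762, 2.14 and 1.17 CPM in the WT untreated samples. The values in both genotypes overlapped, and WT untreated sample 2 was the highest of the 10. The DSS difference was -0.72 ± 0.62 in TG (adjusted p of 0.578) and -1.11 ± 0.57 in WT (adjusted p of 0.207, log2, SE, edgeR's test).

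Itgb8, the chain of the other TGF-beta-activating alpha v integrin, had 23 pooled counts in TG DSS, 19 in WT DSS, 11 in TG untreated and 9 in WT untreated samples. It was 0.410 and 0.937 CPM in the TG DSS samples, 0.532 and 0.540 CPM in the WT DSS samples, 0, 0.236 and 0.434 CPM in the TG untreated samples, and 0.176, 0.238 and 0.123 CPM in the WT untreated samples. The 0 allows up to 0.179 CPM at that depth. The WT DSS samples lay above all the WT untreated samples, and in TG the groups overlapped. The DSS to untreated ratio of pooled counts was 3.05 in TG (95% exact interval 1.43 to 6.93) and 2.99 in WT (1.29 to 7.49), for counting error only. In an edgeR fit with no count filter the adjusted p was 0.347 in TG and 0.266 in WT, so the difference did not pass against the spread between samples.

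Tgfb1 was the main ligand transcript in every sample. It was 13.7 and 11.4 CPM in the TG DSS samples, against 11.1 and 11.5 CPM in the WT DSS samples. It was 8.82, 7.09 and 13.5 CPM in the TG untreated samples, against 7.80, 14.3 and 6.58 CPM in the WT untreated samples. The groups overlapped in every comparison, with 1 high sample in each untreated group. TG against WT differed by 0.15 ± 0.37 after DSS (adjusted p of 0.911) and by 0.033 ± 0.31 without treatment (adjusted p of 0.964) in edgeR's test (log2, SE), and the sign of the untreated difference turned under total count scaling (-0.051).

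Tgfb1 held most of the ligand transcripts per length. Its share of the FPKM of Tgfb1, Tgfb2 and Tgfb3 was 96.6 and 95.8% in the TG DSS samples, against 96.7 and 95.9% in the WT DSS samples. The share was 95.1, 88.2 and 92.1% in the TG untreated samples, against 92.9, 96.3 and 90.6% in the WT untreated samples. TG minus WT was -0.06 percentage points after DSS and -1.49 without treatment, and -0.773 on average over both treatments. In two-sided exact permutation tests the p was 0.667 after DSS, where the smallest possible is 0.333, and 0.6 without treatment, where it is 0.1. With labels permuted within treatment the exact p was 0.55 over 120 permutations, of which the smallest possible is 0.0167. Adjusted over these 3 comparisons by Benjamini-Hochberg, each exact permutation p was 0.667.

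Tgfb3, the second ligand with the RGD codons shown above, was 0.762 and 0.703 CPM in the TG DSS samples and 0.591 and 0.702 CPM in the WT DSS samples. It was 0.656, 1.42 and 1.74 CPM in the TG untreated samples and 0.880, 0.833 and 0.800 CPM in the WT untreated samples. TG untreated samples 2 and 3 stood above all others, and TG untreated sample 1 was within the range of the rest. The untreated difference was 0.59 ± 0.36 (log2, SE; adjusted p of 0.372 in edgeR's test). Both WT DSS samples lay below all 3 WT untreated samples, by -0.37 ± 0.43 (log2, SE; adjusted p of 0.6 in edgeR's test). Tgfb2, the ligand without the codons, had 2 pooled counts in TG DSS, 2 in WT DSS, 5 in TG untreated and 8 in WT untreated samples. It was not detected in the first sample of either DSS group, which allows up to 0.176 CPM in TG and 0.177 CPM in WT. No difference in Tgfb2 was detectable at this depth.

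Ltbp1, which anchors latent TGF-beta in the matrix (chromosome 17, 75005480 to 75392512), had 0.410 and 0.175 CPM in the TG DSS samples and 0.0591 and 0.323 CPM in the WT DSS samples. It was 0.0596, 0.650 and 1.30 CPM in the TG untreated samples and 0.176, 0.178 and 0.308 CPM in the WT untreated samples. TG untreated samples 2 and 3 held nearly all of its 33 counts in that group, and TG untreated sample 1 was below all 3 WT untreated samples. The untreated TG to WT ratio of pooled counts was 3.02 (95% exact interval 1.49 to 6.62, counting error only), while edgeR's test over samples gave 1.57 ± 0.85 (log2, SE; adjusted p of 0.32). The gene passed the count filter only through those 2 TG samples, and without either of them it could not be tested.

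Markers of other cells varied with several of these low genes. Leukocyte markers (6 of 6 measured) summed to 86.5 and 80.8 CPM in TG DSS, 98.6 and 80.2 CPM in WT DSS, 74.4, 179.1 and 265.5 CPM in TG untreated and 225.5, 422.3 and 216.6 CPM in WT untreated samples. The highest Itgb3 and Tgfb1 values of each untreated group fell in its sample with the highest leukocyte sum. Over all samples Tgfb1 did not follow that sum. It was 11.1 to 13.7 CPM in the DSS samples, where the sum was 80.2 to 98.6 CPM. In WT untreated samples 1 and 3, with sums of 225.5 and 216.6 CPM, Tgfb1 was 7.80 and 6.58 CPM. Tgfb1 was also higher in TG untreated sample 1 (8.82 CPM) than in sample 2 (7.09 CPM), against the order of their sums. Fibroblast markers (8 of 8 measured) summed to 37.2 and 37.7 CPM in TG DSS, 39.9 and 34.9 CPM in WT DSS, 54.0, 135.4 and 137.5 CPM in TG untreated and 52.6, 77.6 and 64.4 CPM in WT untreated samples. Most of the sum in TG untreated samples 2 and 3 came from Col1a1, Col1a2 and Col3a1 (93.8 and 97.5 CPM). The other 5 fibroblast markers summed to 41.6 and 40.0 CPM there, below the 61.2 CPM of WT untreated sample 2, of which Thy1 was 36.4 CPM. Among these 5, Dcn (21.5 and 16.75 CPM), Lum (1.48 and 1.55 CPM) and Pdgfra (1.595 and 1.30 CPM) were also highest in TG untreated samples 2 and 3. Thy1 and Pdgfrb were highest in WT untreated sample 2. The highest Tgfb3 and Ltbp1 values thus fell in the 2 samples highest in the collagens, Dcn, Lum and Pdgfra, and not in the sample highest in Thy1 and Pdgfrb. The part of these cells in the results was not tested, and in bulk tissue fewer cells of a type and less RNA per cell cannot be told apart.

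**Figure D4:**
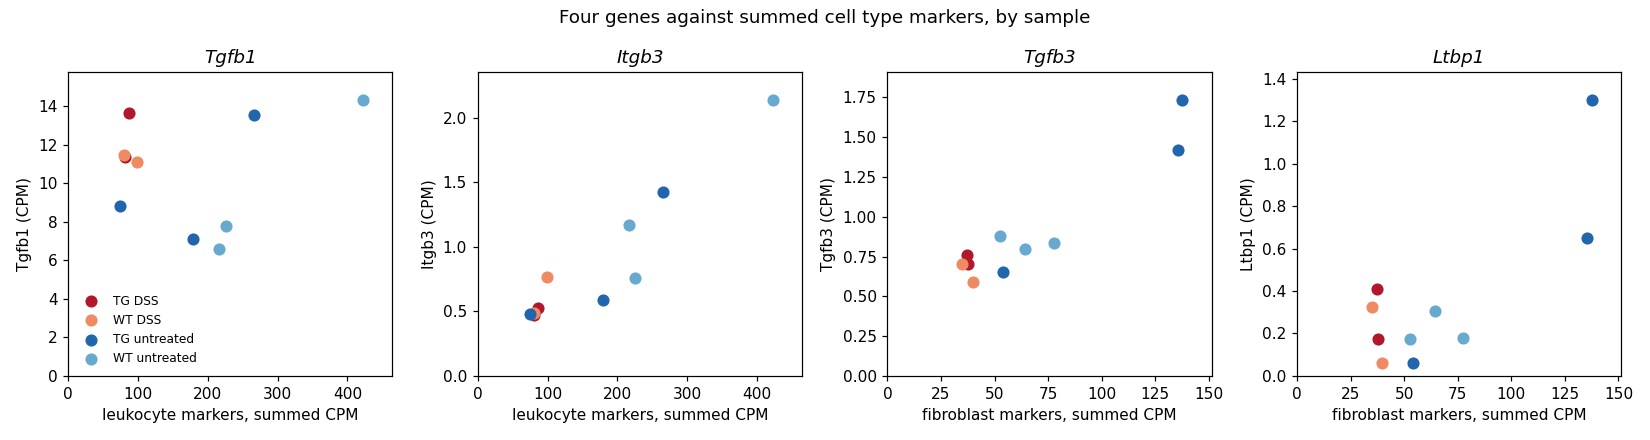
Tgfb1 and Itgb3 against the summed leukocyte markers, and Tgfb3 and Ltbp1 against the summed fibroblast markers, in CPM on linear axes from 0, with 1 point per sample coloured by group. WT untreated sample 2 is highest in leukocyte markers (422.3 CPM), Tgfb1 and Itgb3, and TG untreated samples 2 and 3 are highest in the fibroblast sum (135.4 and 137.5 CPM, mostly of 3 collagens), Tgfb3 and Ltbp1.

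The question whether the transgene altered the mouse genes of its own pathway was addressed by the genotype comparisons. Of the 8 members tested, only the human ITGB6 row passed, both after DSS and without treatment, as the genotype labels require. Of all genes 0.185% passed after DSS (0.178% higher and 0.00711% lower). Without treatment 3.7% of all genes passed (2.26% higher and 1.44% lower). The mouse beta 6 gene differed by -0.21 ± 0.17 after DSS (adjusted p of 0.693) and by -0.19 ± 0.14 without treatment (adjusted p of 0.449), and alpha v by -0.066 ± 0.19 (0.922) and -0.14 ± 0.16 (0.618), all log2 with SE from edgeR's test. Over both treatments the mean TG to WT difference was -0.20 ± 0.11 for Itgb6 (adjusted p of 0.351) and -0.10 ± 0.12 for Itgav (adjusted p of 0.659) in edgeR's test. There too the transgene row alone of the 8 members passed, and 1.16% of all genes did. None of the 7 mouse members passed in these comparisons by edgeR or by DESeq2, and none was under 0.05 before adjustment in edgeR. DESeq2 gave 3 of the 7 no adjusted p after DSS.

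**Figure D5:**
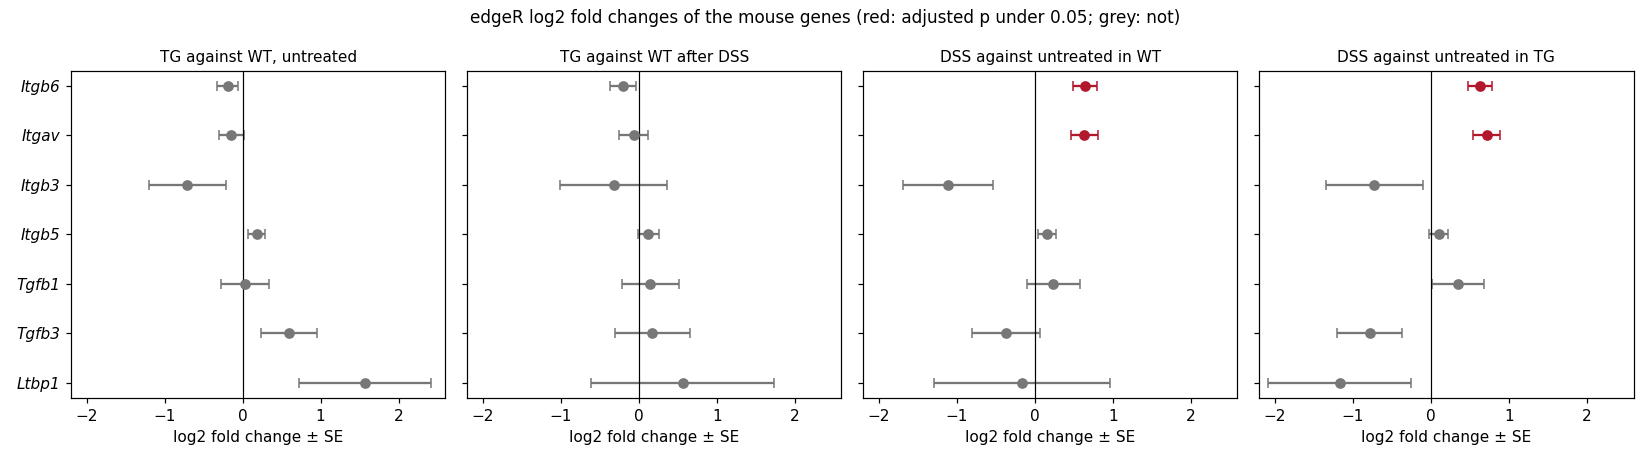
edgeR log2 fold changes with standard errors of the 7 tested mouse members in 4 comparisons, TG over WT or DSS over untreated. Red points, Itgb6 and Itgav in both DSS comparisons, have an adjusted p under 0.05 and lie between 0.63 and 0.71, and all others are grey.

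Around the members, 7 lists of pathway genes were examined. In untreated TG against WT, 6 of 72 distinct pathway genes tested passed, all higher. Of all genes 3.7% passed in that comparison, 2.26% higher and 1.44% lower. Fn1, which encodes the alpha v ligand fibronectin, was 2.80 ± 0.30 higher (adjusted p of 0.00203), the sole gene of the 6 that passed in all 10 fits without a sample. The collagen genes Col1a2 (2.07 ± 0.38, 0.0207), Col1a1 (1.79 ± 0.37, 0.0289) and Col3a1 (1.98 ± 0.42, 0.031) also rose. The 3 collagens summed to 36.1, 93.8 and 97.5 CPM in the TG untreated samples, against 13.4, 16.4 and 29.0 CPM in the WT untreated samples. The other fibroblast markers were divided. Pdgfrb was 9.003, 5.61 and 6.02 CPM in TG untreated samples, against 11.7, 13.4 and 9.54 CPM in WT untreated samples. Thy1 was 5.19, 11.5 and 14.4 CPM, against 20.5, 36.4 and 18.9 CPM. Dcn was 3.40, 21.5 and 16.75 CPM, against 6.51, 10.95 and 5.54 CPM. Like Dcn, Lum and Pdgfra lay above all WT untreated samples in TG untreated samples 2 and 3, but not in TG untreated sample 1. Bambi, a decoy receptor that restrains TGF-beta signalling, rose by 1.11 ± 0.25 (0.0399), and Fermt1, the epithelial kindlin that activates integrins, by 0.48 ± 0.10 (0.0274), all log2 with SE and edgeR adjusted p. Each of these 5 lost its call without WT untreated sample 1 or 2 and without TG untreated sample 2 or 3. The list of latent TGF-beta storage and activation had 0 of 13 passing by edgeR and by DESeq2, with 4 under 0.05 before adjustment. After DSS 0 of the 72 genes passed between genotypes by edgeR, with 7 under 0.05 before adjustment and 1 passing by DESeq2. Of all genes 0.185% passed there by edgeR.

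With DSS the genes that store and release latent TGF-beta moved in both directions. In TG, 2 of 13 rose and 3 fell, with a median of -0.35, and in WT 3 rose and 2 fell, with a median of 0.13 (log2). These counts stand against 3.33% of all genes higher and 2.15% lower in TG, and 10.2% higher and 9.62% lower in WT. Mmp9, a matrix protease, rose by 2.71 ± 0.48 in TG (adjusted p of 0.01) and 3.17 ± 0.47 in WT (0.00201), and it passed the count filter only through the DSS samples, with 14 pooled counts in TG untreated and 14 in WT untreated samples. Plat, the tissue plasminogen activator, rose by 2.80 ± 0.53 in TG (0.0133) and 3.09 ± 0.58 in WT (0.00675), and Plau, urokinase, passed in WT (2.05 ± 0.51, 0.0198). Thbs1, thrombospondin 1, an integrin-independent activator of latent TGF-beta, fell by 1.77 in TG (SE 0.24, 0.00275) and by 1.50 in WT (SE 0.24, 0.00316), and passed in all 10 fits without a sample in both genotypes. Ltbp4, a relative of Ltbp1, fell by 1.53 in TG (SE 0.36, 0.0349) and by 1.56 in WT (SE 0.36, 0.0153), and Fbn1, the microfibril protein fibrillin 1, fell by 2.22 in TG (SE 0.40, 0.0109), all log2 with edgeR adjusted p. Without either DSS sample of the genotype the calls of Ltbp4, of Fbn1 in TG and of Mmp9 in TG were lost. That of Plat in TG was lost without TG untreated sample 2 or TG DSS sample 2, and that of Plau without any of the 5 WT samples, while Mmp9 and Plat in WT held in all 10 fits.

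Among receptors, SMADs and their regulators, 1 of 14 rose and 2 fell in TG, and 2 rose and 2 fell in WT. Of all genes 5.48% passed in TG and 19.8% in WT, so 4 of 14 in WT is near the share of all genes. Tgfbr2, the receptor that binds the ligand, rose by 0.43 ± 0.10 in TG (adjusted p of 0.0294) and in WT (0.43 ± 0.10, 0.014). Smad7, an inhibitor that TGF-beta itself induces, fell by 1.02 in TG (SE 0.18, 0.0094) and by 0.59 in WT (SE 0.17, 0.0407). In WT Smad4, the shared SMAD, rose (0.70 ± 0.13, 0.00548) and the coreceptor gene Tgfbr3, which passed the count filter only through untreated samples, fell by 2.55 (SE 0.65, 0.0229). In TG Bambi fell by 1.27 (SE 0.29, 0.0313), all log2 with SE and edgeR adjusted p. Of these calls only that of Smad4 held in all 10 fits without a sample. In TG, Smad7, Bambi and Tgfbr2 were lost without either DSS sample, and in WT the calls of Smad7 and Tgfbr2 were lost without DSS sample 2 and that of Tgfbr3 without DSS sample 1, among others.

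Of 14 TGF-beta target genes, 1 rose and 5 fell in TG, where 3.33% of all genes rose and 2.15% fell. Pmepa1, a feedback inhibitor induced by TGF-beta, rose by 0.89 ± 0.17 in TG (adjusted p of 0.016) and 1.42 ± 0.17 in WT (0.000743), and Smad7 fell in WT as given above. In TG the genes that fell were Col1a1 (-2.99 ± 0.46, 0.0052), Col1a2 (-2.92 ± 0.47, 0.00635), Col3a1 (-2.19 ± 0.49, 0.0291), Id1 (-0.70 ± 0.17, 0.0444) and Smad7, all log2 with SE and edgeR adjusted p. The collagens are also fibroblast markers, and the other 5 of these summed to 25.0 and 24.4 CPM in TG DSS samples, against 17.9, 41.6 and 40.0 CPM in TG untreated samples. Among them Pdgfrb was 10.7 and 10.8 CPM in TG DSS samples, against 9.003, 5.61 and 6.02 CPM in TG untreated samples. Dcn was 8.61 and 6.68 CPM in TG DSS samples, against 3.40, 21.5 and 16.75 CPM in TG untreated samples. Like Dcn, Lum, Pdgfra and Thy1 were lower in both TG DSS samples than in TG untreated samples 2 and 3. Dcn, Lum and Pdgfra were higher in both TG DSS samples than in TG untreated sample 1. The part of these cells was not tested. All 5 falls in TG were lost without either TG DSS sample, and the rise of Pmepa1 in TG without DSS sample 2 or untreated sample 2. In WT the call of Pmepa1 held in all 10 fits without a sample.

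Of 7 alpha v ligands tested, 3 fell with DSS in TG, and 2 fell and 1 rose in WT, where 2.15% of all genes fell in TG, and 9.62% fell and 10.2% rose in WT. Fn1 fell by 4.72 in TG (SE 0.42, adjusted p of 0.000214) and by 1.30 in WT (SE 0.38, 0.0381), and the difference between these changes passed too (-3.42 ± 0.55, 0.0238, edgeR). That difference was lost without WT untreated sample 1, TG untreated sample 3, WT DSS sample 2 or either TG DSS sample. Vwf, von Willebrand factor of endothelium, fell by 1.37 in TG (SE 0.28, 0.0202) and by 1.02 in WT (SE 0.28, 0.0295), and Nid1, nidogen of basement membranes, fell by 2.72 in TG (SE 0.66, 0.0418). Tnc, tenascin C, a ligand of alpha v integrins in wounds, rose in WT (adjusted p of 0.00623 in edgeR), with 62 and 13 counts in the WT DSS samples, against 1, 0 and 1 in the WT untreated samples. WT DSS sample 1 held most of these counts, and the gene passed the count filter only through DSS samples. The calls of Fn1 in TG and of Tnc in WT held in all 10 fits without a sample, and those of Vwf, of Nid1 and of Fn1 in WT were each lost without DSS sample 2 of the genotype, among others.

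Other integrin chains passed with DSS only in WT, and that contrast between genotypes did not itself pass. In TG, 0 of 13 alpha chains passed by edgeR, with 4 under 0.05 before adjustment and 3 passing by DESeq2, and 0 of 4 beta chains passed, with 2 before adjustment and 1 by DESeq2. In WT, Itgam of myeloid cells (1.57 ± 0.27, adjusted p of 0.00429) and Itga2, a collagen receptor chain of epithelium (0.77 ± 0.15, 0.00664), rose, where 10.2% of all genes rose and 9.62% fell. The leukocyte chains Itgae (-2.31 ± 0.46, 0.00867), Itgal (-2.15 ± 0.49, 0.0144), Itgax (-1.46 ± 0.43, 0.0398), Itgb7 (-2.11 ± 0.48, 0.0148) and Itgb2 (-1.83 ± 0.49, 0.0265) fell in WT, where leukocyte sums were lower after DSS, all log2 with SE and edgeR adjusted p. Of the adaptors, Vcl, vinculin, rose by 0.32 ± 0.10 (0.046) in WT, and Fermt3 of blood cells (-1.27 ± 0.30, 0.0172) and Src (-0.44 ± 0.12, 0.0268) fell there. In TG 0 of 11 adaptors passed by edgeR or DESeq2, with 3 under 0.05 before adjustment. The calls of Itgam and Itga2 held in all 10 fits without a sample, and the others were lost in at least 1, each without a WT DSS sample among them. No alpha chain, beta chain or adaptor passed edgeR's test of a difference between genotypes, where 5 alpha chains and 4 adaptors were under 0.05 before adjustment and 1 adaptor passed by DESeq2.

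The pattern over the 10 samples of the members was compared with that of all genes with a mean of at least 10 CPM, as Pearson's r of log2 CPM, which describes samples that also share treatment and depth. Closest to Itgb6 were Sptlc2 (r = 0.969), Ceacam20 (0.958) and Zc3h13 (0.958). Closest to Itgav were Larp1b (0.983), Asah1 (0.982) and Anp32a (0.979), and the r between Itgb6 and Itgav was 0.931. For Itgb3 the closest were Laptm5 (0.934), Optn (0.932) and Gimap1 (0.93), of which Laptm5 is a leukocyte marker used above. For Tgfb1 no gene exceeded 0.761 (Mov10), and the next were Rap1gds1 (0.758) and Mrrf (0.751). For Tgfb3 they were Fbxo33 (0.942), Pi4k2b (0.932) and Fam73a (0.909), and the r of Tgfb3 with Ltbp1 was 0.879, in which TG untreated samples 2 and 3 are the highest of both genes.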

How the data were processed

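The authors deposited, per sample, RSEM expected counts, FPKM values and gene lengths for each gene listed, per the file headers. HISAT2 2.0.4, Bowtie2 2.2.5, RSEM 1.2.12 and mm10 are named in the submitters' processing notes, with no role or order. The deposited FPKM values were used to compare levels between genes, because FPKM divides by length. Genes missing from a table were set to 0. Expected counts were rounded, filtered with filterByExpr (count minimum 10, total minimum 15), scaled by TMM and fitted with 1 mean per group in edgeR 4.0.16 (R 4.3.3), with a Benjamini-Hochberg threshold of 0.05 over 14072 genes. The design text stated no test. CPM uses the same scaling. Alternatives were DESeq2 1.42.0, limma 3.58.1 on log2 of the deposited FPKM, other scalings and filters, fits of the groups compared alone, the replicate block, robust empirical Bayes, the beta 6 rows summed or the human row left out, and each sample left out. Exact intervals on pooled counts and floors of 3 counts cover counting error only. The test was checked on simulated counts. Same-group samples were not duplicates. Named genes are all members, up to 4 passing genes per pathway list and comparison (all where 5 or fewer passed), and for up to 5 members the 3 most alike genes. Members, lists and alternatives were chosen with earlier results of these data known, and Xist and Kdm5d after values were seen. RefSeq matched 19399 gene identifiers and gave coordinates and promoters. No sequence of human ITGB6 was used here. 1 result of the target gene list is not reported here.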

Additional observations from a re-analysis of the deposited data

Results flagged for a closer look

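The human ITGB6 row changed with DSS in opposite directions in the genotypes. The TG change minus the WT change was -3.59 ± 0.39 (log2, SE), with an adjusted p of 0.00269 in edgeR's interaction test. All TG DSS samples lay below all TG untreated samples (2201 and 2453 CPM, against 3632 to 3913 CPM), and all WT DSS samples lay above all WT untreated samples (0.709 and 1.13 CPM, against 0.117 to 0.123 CPM). WT samples by label lack the transgene, so the WT side is a change in a few reads given to that row. These were 33 pooled expected counts after DSS and 6 without treatment, and their source was not tested. The difference between genotypes rests mostly on them, with a log2 change of 2.88 in WT and -0.71 in TG.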

How the results depend on the processing

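Correlations of same-numbered deviations from group means were -0.29 to 0.206. They cannot settle whether the replicate numbers pair the samples, because the 2 deviations of each DSS group mirror each other. With the replicate number as a block 1 member passed with DSS in WT and 0 in TG, against 3 in each without it. With DSS in TG, 1 member passed when only the groups compared were fitted and in each of the 3 limma fits; with DSS in WT, 1 passed in limma on log2(FPKM + 1) with and without a filter. Leaving out single samples gave 0 to 3 members in TG and 1 to 3 in WT. Leaving out the human ITGB6 row left 0 passing in TG against WT untreated, after DSS and on average, and in the interaction. Summing human and mouse beta 6 gave Itgb6 a log2 difference of 7.47 between genotypes untreated, 6.09 after DSS and 6.78 on average, and -0.70 with DSS in TG. Differences near 0 changed sign: Itgb6 in the interaction (0.0021 in limma on log2(FPKM + 0.1)), Ltbp1 with DSS in WT (0.41 with the block) and Tgfb1 in untreated TG against WT (-0.051 by total counts, -0.017 in limma with a pseudocount of 1, with and without a filter, and -0.016 with 0.1). Without single samples, untreated TG against WT ranged from -0.25 to 0.030 for Itgav and -0.27 to 0.43 for Tgfb1. After DSS it ranged from -0.62 to 0.034 for Itgb3, -0.40 to 0.012 for Itgb6 and -0.15 to 2.18 for Ltbp1. The interaction ranged from -0.21 to 0.20 for Itgb6 and -0.096 to 0.18 for Itgav, and DSS in WT from -1.78 to 0.55 for Ltbp1. The Tgfb1 share difference ranged from -3.15 to 0.308 untreated, -0.45 to 0.33 after DSS and -1.60 to 0.124 on average. In CPM in place of FPKM, the beta 6 share was 89.2% in TG DSS, 9.69% in WT DSS and 7.14% in WT untreated samples. The cause of these shifts was not tested. Depth limits Itgb8, Tgfb2 and Ltbp1, with 62, 17 and 61 counts over all samples.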
